A study of Mus musculus with 8 samples.

Results

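The 9 genes described here, *Cd300e*, *Nr4a1*, *Ace*, *Adgre4*, *Spn*, *Treml4*, *Pglyrp1*, *Itgal*, and *Eno3*, are typical of nonclassical monocytes, and all 9 were found by symbol among the 54146 genes of the deposited counts. They were chosen by their counts in FCGR4+ against FCGR4- macrophages, paired within animal, so their values in that contrast are given as a description and not as a test. The counts came from 8 bulk RNA-Seq libraries of macrophages sorted from epididymal white adipose tissue (eWAT), 1 FCGR4+ and 1 FCGR4- library from each of 4 male mice of the genotype C57Bl6. The labels name no engineered allele in either group. All 4 mice had been fed a high-fat diet ad libitum for 24 weeks, and then received 30% less food over the next 2 weeks (stCR, a short caloric restriction). Sorted cells were CD45+ and CD11b+ and negative for CD3, B220, Ly6G, and SiglecF, after which FCGR4 staining divided them. The gate as described holds no F4/80 or CD64, so CD11b+ monocytes of the tissue were not gated out by it, and the comparison has no group without stCR.

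Nonclassical monocytes are the Ly6C-low monocytes of the mouse. They crawl along the inner surface of blood vessels, and most of them arise from classical Ly6C-high monocytes in a step that needs the nuclear receptor NR4A1. High surface FCGR4 is one of their usual marks in mouse blood, which makes them a point of reference for an FCGR4+ macrophage sort in adipose tissue.

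The libraries held between 35992794 and 66856746 counts, and 3 counts, taken as the floor of detection, are worth 0.0440 to 0.0883 normalized CPM, the unit used here, in which each count is divided by the TMM-adjusted size of its library. A minimum of 10 counts in 4 or more libraries left 17095 genes to test, all 9 genes among them. *Fcgr4* itself ranged from 139 to 236 normalized CPM in FCGR4+ cells and from 48.5 to 82.9 in FCGR4- cells, without overlap. The summed level of 14 macrophage markers lay between 25403 and 50351 normalized CPM in FCGR4+ and between 19473 and 37791 in FCGR4- libraries, higher in FCGR4+ cells in 4 of 4 mice. *Apoe* alone made up 45.0% to 73.4% of this sum, and 3 of the 14, *Csf1r*, *Cd14*, and *Lyve1*, had a log2 fold change below 0. By edgeR at an adjusted P under 0.1, 0 of the 14 were called in either direction, while 7 were higher and 0 lower at an unadjusted P under 0.05, and 7 and 0 by DESeq2, beside 3.1% and 1.12% of all tested genes that were higher by these 2 criteria. In bulk libraries, fewer cells of a type and less RNA of a gene per cell cannot be told apart.

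The 9 genes did not move together between the populations. In all 4 mice *Cd300e* had the higher level in FCGR4+ cells, *Pglyrp1* was lower in 4 of 4 mice, and the other 7 differed in direction among mice. Within FCGR4+ cells, all 9 genes were highest in the same mouse. The library of mouse 1 held the highest FCGR4+ level of each of the 9, and also the highest ratio of FCGR4+ over FCGR4-. Among all tested genes, 29.6% had their highest FCGR4+ level in that library and 28.6% had their highest ratio in that mouse. Within FCGR4- cells 5 of the 9 were highest in mouse 3, 2 in mouse 1, and 2 in mouse 4. Over all 8 libraries, 6 of the 9 were highest in FCGR4+ cells of mouse 1, and *Nr4a1*, *Itgal*, and *Pglyrp1* in FCGR4- cells of mouse 3. The 9 genes' summed level in FCGR4+ cells was 422, 168, 147, and 128 normalized CPM in mice 1 to 4. In FCGR4- cells the sum was 220, 208, 277, and 220 in mice 1 to 4. The FCGR4+ sum was thus above its FCGR4- partner in 1 mouse and below it in 3.

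**Figure D1:**
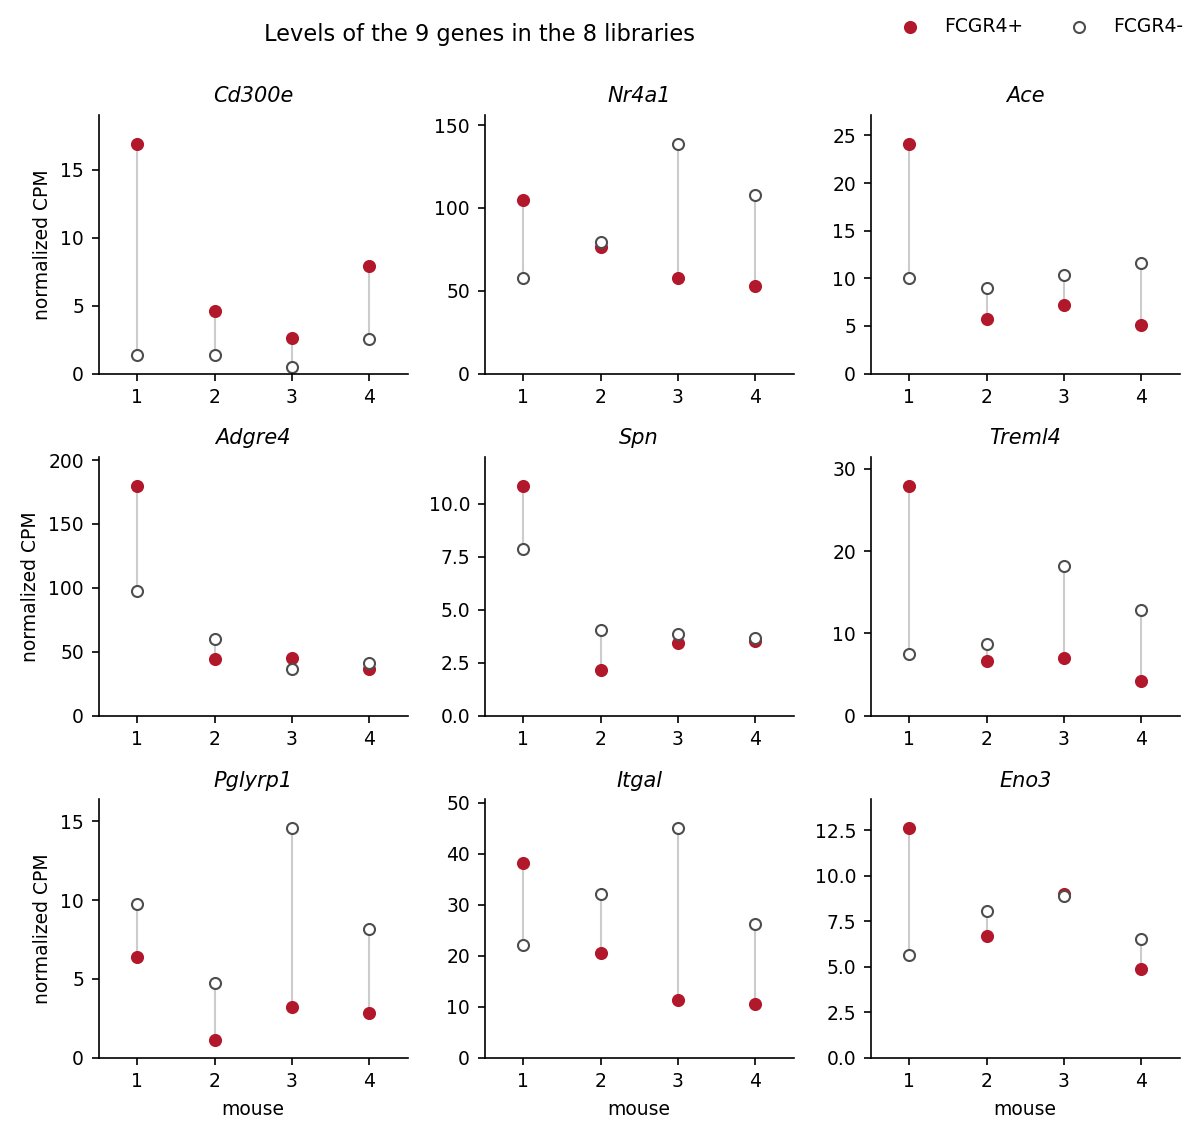
Normalized CPM (y axis, linear, from 0) of the 9 genes in each mouse (x axis), with filled points for FCGR4+ and open points for FCGR4- libraries and a line joining the pair of 1 mouse. In all 9 panels the highest filled point is mouse 1, *Cd300e* has every filled point above every open point, and *Pglyrp1* has each open point above its filled partner.

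*Ace*, *Adgre4*, *Spn*, and *Treml4* had an FCGR4+ level in mouse 1 that stood far above the other 3 mice, and their promoters are shown because these levels stood apart in the same library. The sequences are RefSeq windows of 300 bases on GRCm38.p6, the build called mm10 in the counts, from 250 bases before to 50 after the start of the transcript, 5′ to 3′ on the strand of the gene. Capitals mark AGGTCA, the half-site of nuclear receptors, and GAGGAA, a core recognized by ETS factors such as PU.1, each on either strand.
*Ace*, chr11:105967698-105967997, plus strand: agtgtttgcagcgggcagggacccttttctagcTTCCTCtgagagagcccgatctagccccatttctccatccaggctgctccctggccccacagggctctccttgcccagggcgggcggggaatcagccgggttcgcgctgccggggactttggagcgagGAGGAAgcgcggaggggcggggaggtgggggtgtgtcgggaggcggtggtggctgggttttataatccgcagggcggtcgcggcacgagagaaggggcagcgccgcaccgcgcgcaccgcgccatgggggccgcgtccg
*Adgre4*, chr17:55749734-55750033, plus strand: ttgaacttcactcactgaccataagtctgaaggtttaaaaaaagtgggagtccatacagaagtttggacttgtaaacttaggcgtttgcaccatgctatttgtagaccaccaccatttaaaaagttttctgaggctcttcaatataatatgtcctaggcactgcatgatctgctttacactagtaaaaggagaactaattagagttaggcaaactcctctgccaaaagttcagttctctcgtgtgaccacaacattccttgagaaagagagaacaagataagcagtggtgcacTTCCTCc
*Spn*, chr7:127137774-127138073, minus strand: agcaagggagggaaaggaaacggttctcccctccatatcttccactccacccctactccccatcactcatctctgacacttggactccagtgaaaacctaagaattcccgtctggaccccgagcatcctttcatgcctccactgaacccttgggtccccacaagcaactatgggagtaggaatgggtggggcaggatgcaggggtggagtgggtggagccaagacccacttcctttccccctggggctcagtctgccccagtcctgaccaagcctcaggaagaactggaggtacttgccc
*Treml4*, chr17:48264045-48264344, plus strand: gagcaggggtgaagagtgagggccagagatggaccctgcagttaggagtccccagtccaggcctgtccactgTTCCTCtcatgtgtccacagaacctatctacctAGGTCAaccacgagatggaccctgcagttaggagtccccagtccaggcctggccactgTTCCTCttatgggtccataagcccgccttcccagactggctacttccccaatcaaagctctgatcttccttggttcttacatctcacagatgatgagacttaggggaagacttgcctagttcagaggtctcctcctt

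RefSeq promoter windows were matched for 8 of the 9 genes, in 9 windows, since *Ace* has a second start inside the gene. NR4A1 binds the motif AAAGGTCA, which contains the half-site, and this motif was in 0 of the 9 windows and in 1.51% of all 32851 promoters of this length. The half-site AGGTCA was in 3 windows, those of *Eno3*, *Treml4*, and the second start of *Ace*, against 16.3% of all promoters. GAGGAA was in 4 windows, those of *Pglyrp1*, *Adgre4*, *Treml4*, and the first start of *Ace*, against 28.3% of all promoters. The window of *Spn* held neither of the marked motifs.

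*Cd300e*, *Adgre4*, and *Treml4* encode receptors on the cell surface. *Cd300e*, an activating receptor of the CD300 family in monocytes, is on the minus strand of chromosome 11 from 115051917 to 115062177 on mm10. In FCGR4+ cells it was at 16.9, 4.62, 2.62, and 7.89 normalized CPM in mice 1 to 4. In FCGR4- cells it was at 1.39, 1.38, 0.469, and 2.52 for the same mice. Every FCGR4+ library was above every FCGR4- library. The log2 fold change of FCGR4+ over FCGR4- cells was 2.36 ± 0.386 (SE, n = 4 mice), and mice 1 to 4 had ratios of 3.58, 1.71, 2.39, and 1.63 on log2 CPM.

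*Adgre4*, an adhesion G protein-coupled receptor of the F4/80 family, is on the plus strand of chromosome 17 from 55749984 to 55853662. In FCGR4+ cells it was at 180.0, 44.3, 45.5, and 36.7 normalized CPM in mice 1 to 4, and in FCGR4- cells at 97.8, 60.1, 36.2, and 40.9. Mouse 1 was highest in both populations, and mice 2 to 4 overlapped between them. Its log2 fold change was 0.15 ± 0.225 (SE, n = 4), higher in FCGR4+ cells in 2 mice and lower in 2.

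*Treml4*, a receptor of the TREM family that binds dying cells, is on the plus strand of chromosome 17 from 48264295 to 48275360. Its FCGR4+ level was 27.97, 6.61, 6.99, and 4.25 normalized CPM in mice 1 to 4. Its FCGR4- level was 7.56, 8.68, 18.2, and 12.9. The populations overlapped, with the FCGR4+ library above in mouse 1 and below in the other 3 mice. The log2 fold change was -0.44 ± 0.576 (SE, n = 4), and the ratios of single mice ran from 1.88 in mouse 1 to -1.59 in mouse 4, the widest spread among the 9 genes.

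*Spn* and *Itgal* serve adhesion. *Spn*, which encodes the sialoglycoprotein CD43, is on the minus strand of chromosome 7 from 127132232 to 127137823. In FCGR4+ cells it was at 10.9, 2.14, 3.45, and 3.53 normalized CPM in mice 1 to 4, and in FCGR4- cells at 7.85, 4.06, 3.85, and 3.65. Mouse 1 was apart from the other mice in both populations, and within mice 3 and 4 the populations were close. Over the 4 mice its log2 fold change was -0.15 ± 0.277 (SE, n = 4).

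*Itgal*, the α chain (CD11a) of the integrin LFA-1 with which these monocytes hold to endothelium, is on the plus strand of chromosome 7 from 127296260 to 127335138. Its FCGR4+ level was 38.2, 20.5, 11.4, and 10.6 normalized CPM in mice 1 to 4. Its FCGR4- level was 22.2, 32.0, 45.1, and 26.2. The FCGR4+ library was the higher of the pair in mouse 1 and the lower in mice 2 to 4, and the log2 fold change was -0.80 ± 0.423 (SE, n = 4). T and NK cells also express *Itgal* and *Spn*. The summed level of 18 T and NK cell genes lay between 6.83 and 20.3 normalized CPM in FCGR4+ and between 33.3 and 106 in FCGR4- libraries, lower in FCGR4+ cells in 4 of 4 mice. By edgeR's quasi-likelihood test 10 of the 17 tested were lower, beside 1.19% of all tested genes. The CD3 chain genes *Cd3d*, *Cd3e*, and *Cd3g* were above 0 in every library, between 0.104 and 1.48 normalized CPM in FCGR4+ and between 0.674 and 4.56 in FCGR4- cells. The part of these cells in the 2 levels was not tested.

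*Nr4a1*, the orphan nuclear receptor on which nonclassical monocytes depend, is also induced within minutes by many stimuli. It is on the plus strand of chromosome 15 from 101254269 to 101274795. In FCGR4+ cells it was at 105, 76.6, 57.7, and 52.6 normalized CPM in mice 1 to 4. In FCGR4- cells it was at 57.5, 79.6, 139, and 108. The FCGR4+ level was highest in mouse 1, where the FCGR4- level was lowest, and the populations were close in mouse 2. For *Nr4a1* the log2 fold change was -0.38 ± 0.349 (SE, n = 4). The summed level of 15 immediate-early genes, which cell isolation can induce, lay between 6726 and 10701 normalized CPM in FCGR4+ and between 8315 and 11625 in FCGR4- libraries, highest in mouse 1 among FCGR4+ and in mouse 3 among FCGR4- libraries, as *Nr4a1* was. Of the 15, 6 had their highest FCGR4+ level in mouse 1, beside 29.6% of all tested genes. None of the 15 passed the threshold by edgeR. At an unadjusted P under 0.05, 2 were lower, and DESeq2 called 1 lower. Over all tested genes, 6.67% and 4.87% were lower by these 2 criteria. The part of the 15 genes in the level of *Nr4a1* was not tested. Its paralogs were low, *Nr4a2* between 1.28 and 8.42 normalized CPM and *Nr4a3* between 0.641 and 4.66 over the 8 libraries, and neither was highest in mouse 1.

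*Ace* and *Eno3* encode enzymes. *Ace*, angiotensin-converting enzyme, is on the plus strand of chromosome 11 from 105967945 to 105989964. In FCGR4+ cells it was at 24.1, 5.68, 7.15, and 5.06 normalized CPM in mice 1 to 4, and in FCGR4- cells at 10.02, 9.005, 10.4, and 11.6. FCGR4- libraries were close to each other, with a coefficient of variation of 10.6%, while FCGR4+ libraries had 86.9%, and mouse 1 alone exceeded its FCGR4- partner. The log2 fold change was -0.30 ± 0.396 (SE, n = 4). Endothelium is rich in *Ace*, and the summed level of 11 endothelial genes lay between 9.86 and 22.9 normalized CPM in FCGR4+ and between 16.6 and 27.9 in FCGR4- libraries. The part of endothelial RNA in the level of *Ace* was not tested. Of the 5287 exonic bases of *Ace*, 5.58% overlap the antisense gene *Gm11651*, and pairs there were left uncounted.

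*Eno3*, the muscle form of the glycolytic enzyme enolase, is on the plus strand of chromosome 11 from 70657202 to 70662513. Its FCGR4+ level was 12.6, 6.70, 8.99, and 4.90 normalized CPM in mice 1 to 4. Its FCGR4- level was 5.68, 8.09, 8.88, and 6.54. The widest gap between populations was in mouse 1, and the log2 fold change was 0.12 ± 0.292 (SE, n = 4). Of 9 other skeletal muscle genes, 2 had enough counts to be tested, and the sum of the 9 was 1.10 to 1.53 normalized CPM in FCGR4+ and 1.15 to 1.97 in FCGR4- libraries. The part of muscle RNA in *Eno3* was not tested. *Eno1*, the enolase of most tissues, lay between 791 and 3158 normalized CPM over the 8 libraries and was lowest in mouse 1 in both populations.

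*Pglyrp1*, a secreted protein that binds bacterial peptidoglycan and is stored in neutrophil granules, is on the plus strand of chromosome 7 from 18871331 to 18890459. In FCGR4+ cells it was at 6.41, 1.12, 3.19, and 2.84 normalized CPM in mice 1 to 4. In FCGR4- cells it was at 9.77, 4.74, 14.6, and 8.15. Each FCGR4+ library was below its partner, although the FCGR4+ level of mouse 1 exceeded the FCGR4- level of mouse 2. The log2 fold change was -1.59 ± 0.309 (SE, n = 4), from -2.18 in mouse 3 to -0.61 in mouse 1. The summed level of 14 neutrophil genes was also lower in FCGR4+ cells in 4 of 4 mice, from 137 to 615 against 433 to 2875 normalized CPM. Of the 13 tested, 9 were lower by edgeR, beside 1.19% of all tested genes. *Ly6g*, which the gate selects against, was at most 1.36 and 5.45 normalized CPM in the 2 populations, and the part of neutrophil RNA in *Pglyrp1* was not tested.

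**Figure D2:**
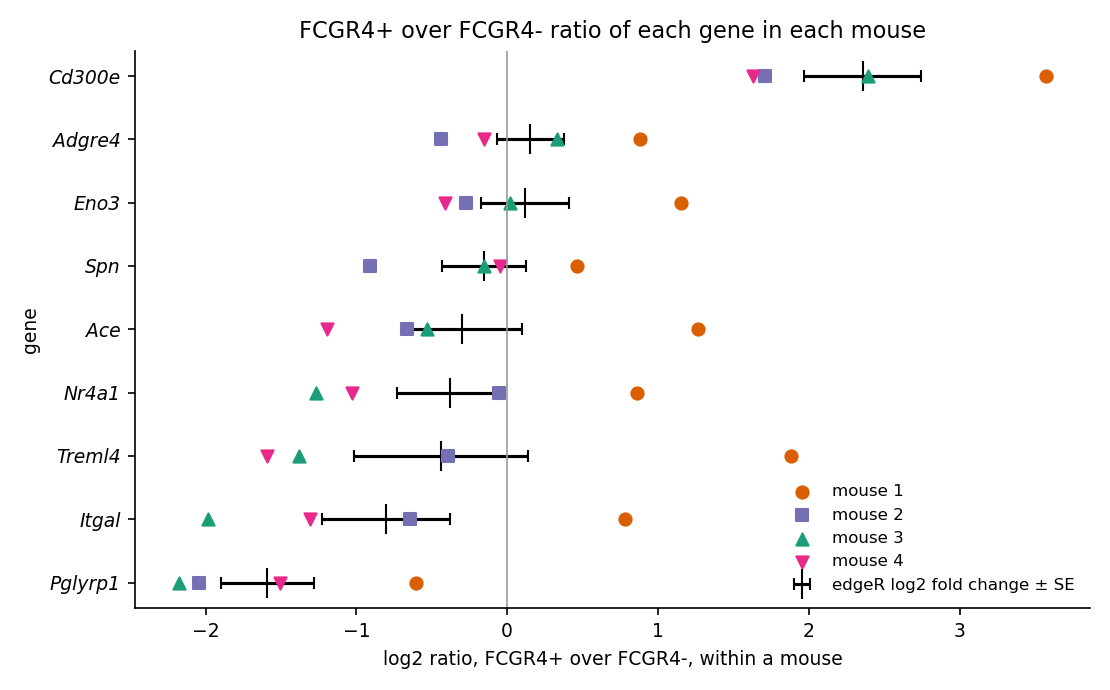
Log2 ratio of FCGR4+ over FCGR4- cells within each mouse (x axis, log2 CPM) for the 9 genes (y axis), with symbols for the 4 mice and a black bar for edgeR's log2 fold change ± SE over 4 mice. Mouse 1 is the rightmost symbol for all 9 genes, and only *Cd300e* and *Pglyrp1* have all 4 symbols on 1 side of 0.

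In edgeR's quasi-likelihood test over all 17095 genes, at an adjusted P under 0.1, 2 of the 9 genes passed, *Cd300e* higher and *Pglyrp1* lower, where 1.27% of all tested genes passed, 0.0819% as higher and 1.19% as lower. Since this contrast chose the genes, nothing is read from that count. Levels that did not overlap between the populations were found for 1 of the 9 and 3.91% of all genes, and 1 direction in 4 of 4 mice for 2 of the 9 and 18.8% of all. The median log2 fold change of the 9 genes was -0.30, beside -0.00 over all tested genes. *Cd300e* did not pass without mouse 1, 2, or 4, and *Pglyrp1* did not without mouse 2, 3, or 4.

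Mice 1 and 2 carry 1 prefix in their sample identifiers and mice 3 and 4 another, without a statement of what it marks. Fitted apart, the log2 fold change had opposite signs in the pairs of mice for 5 of the 9 genes. The fits gave 0.40 ± 0.254 (SE) in mice 1 and 2 and -1.17 ± 0.149 in mice 3 and 4 for *Nr4a1*. For *Treml4* it was 0.77 ± 0.542 and -1.51 ± 0.232, and for *Itgal* 0.08 ± 0.349 and -1.67 ± 0.248. The other such genes were *Ace*, with 0.33 ± 0.469 and -0.89 ± 0.286, and *Eno3*, with 0.45 ± 0.382 and -0.22 ± 0.275. *Cd300e* stayed above 0 in both, at 2.72 ± 0.497 and 2.02 ± 0.446, and *Pglyrp1* below 0, at -1.29 ± 0.409 and -1.88 ± 0.315. Mice 1 and 2 were not alike in the 5 genes with opposite signs. For *Nr4a1*, *Treml4*, *Itgal*, *Ace*, and *Eno3* the ratios of mouse 1 were 0.86, 1.88, 0.78, 1.27, and 1.15. Those of mouse 2 were -0.05, -0.39, -0.64, -0.66, and -0.27. In mice 3 and 4 the ratios were below 0 too, except for *Eno3* in mouse 3, at 0.02. With 2 mice in each fit, the difference between the pairs was not tested.

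Compared per length of transcript, *Adgre4* and *Nr4a1* had the highest levels of the 9 genes. In FCGR4+ cells *Adgre4* was at 21.9 ± 19.8 RPKM (normalized CPM per kilobase of exons, SD, n = 4) and *Nr4a1* at 20.8 ± 6.70, which overlapped. They were followed by *Treml4* at 5.74 ± 5.55, *Eno3* at 4.78 ± 1.92, *Cd300e* at 3.84 ± 3.03, *Itgal* at 3.07 ± 1.96, *Ace* at 1.99 ± 1.73, *Pglyrp1* at 1.85 ± 1.20, and *Spn* at 1.07 ± 0.846 RPKM. The lowest FCGR4+ library of *Nr4a1*, at 15.0 RPKM, was above the highest of *Treml4*, at 14.01, and every other pair of neighbors in this order overlapped. In FCGR4- cells the order was *Nr4a1* at 27.3 ± 10.04, *Adgre4* at 16.8 ± 8.03, *Treml4* at 5.93 ± 2.42, *Pglyrp1* at 5.07 ± 2.23, *Itgal* at 4.78 ± 1.52, *Eno3* at 4.20 ± 0.837, *Ace* at 1.94 ± 0.205, *Spn* at 1.04 ± 0.428, and *Cd300e* at 0.689 ± 0.402 RPKM. There, *Adgre4* did not overlap with *Treml4*, nor *Eno3* with *Ace*, nor *Ace* with *Spn*. Without mouse 1, the FCGR4+ mean fell by more than a factor of 1.5 for *Adgre4*, to 12.1 ± 1.37 RPKM (SD, n = 3), and for *Treml4*, to 2.98 ± 0.743, *Cd300e*, to 2.41 ± 1.27, *Ace*, to 1.13 ± 0.203, and *Spn*, to 0.649 ± 0.166. *Nr4a1*, at 17.8 ± 3.61, was then above *Adgre4* without overlap, and *Eno3*, at 3.95 ± 1.18, preceded *Treml4*, as *Pglyrp1*, at 1.30 ± 0.603, preceded *Ace*. Among the tested genes ordered by mean RPKM, the 9 genes ranked from 2384 for *Nr4a1* to 11216 for *Spn*.

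The standing of mouse 1 was described by the ratio of its level to the mean of mice 2 to 4 in the same population. In FCGR4+ cells the ratio was 4.70 for *Treml4*, 4.27 for *Adgre4*, 4.05 for *Ace*, 3.57 for *Spn*, 3.35 for *Cd300e*, 2.70 for *Itgal*, 2.68 for *Pglyrp1*, 1.84 for *Eno3*, and 1.68 for *Nr4a1*. In FCGR4- cells it was 2.14 for *Adgre4* and 2.04 for *Spn*, and between 0.529 and 1.07 for the other 7. As a log2 value, the median of the 9 genes was 1.75 in FCGR4+ and -0.07 in FCGR4- cells, while over all tested genes it was 0.03 and -0.01. For *Ace*, *Adgre4*, *Spn*, and *Treml4*, the gap of the FCGR4+ library of mouse 1 to the next mouse took a larger fraction of their whole range than Dixon's critical value for 4 samples allows, which 1.83% of all tested genes showed in that library. By the same measure 312 genes stood far above in the FCGR4+ library of mouse 1, and 219, 179, and 138 in those of mice 2, 3, and 4. The mitochondrial share of counts was the highest of its population in both libraries of mouse 1, at 8.31% against 4.35% to 7.87% in FCGR4+ and 9.88% against 4.13% to 6.43% in FCGR4- libraries, and its part in these levels was not tested.

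**Figure D3:**
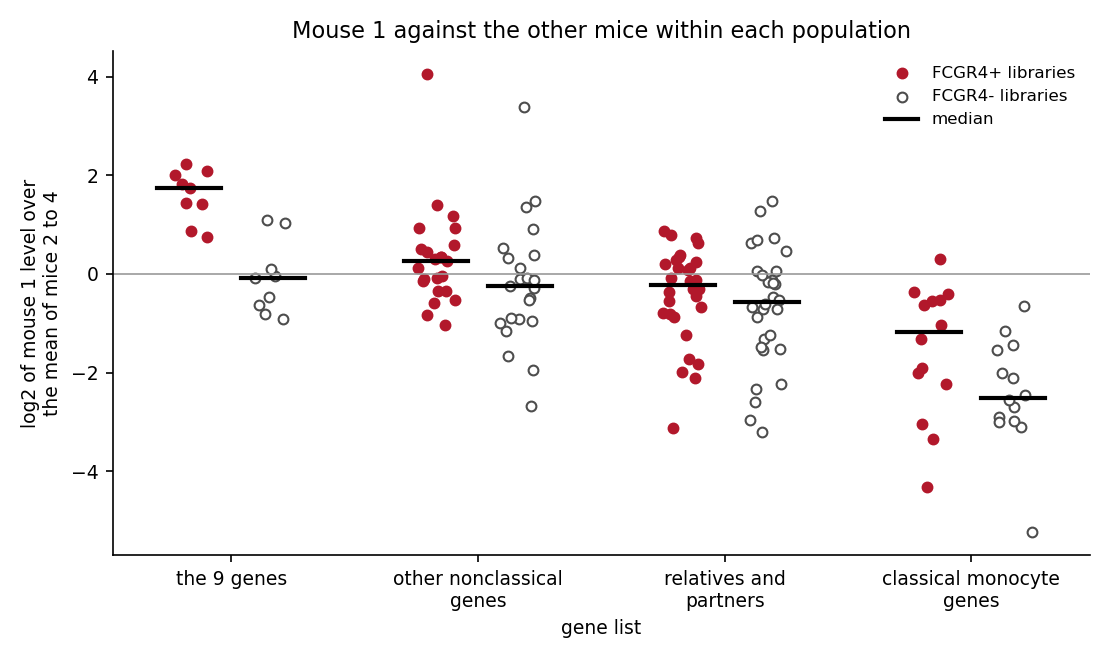
Log2 of the level in mouse 1 over the mean of mice 2 to 4 (y axis) for the tested genes of 4 lists (x axis), filled for FCGR4+ and open for FCGR4- libraries, with bars at the medians. The 9 genes lie between 0.75 and 2.23 in FCGR4+ cells, all above 0, while the classical monocyte genes have a median of -1.17 there and -2.51 in FCGR4- cells.

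After subtracting the mean of each population, log2 levels of the 9 genes were correlated over the 8 libraries, which share mice and sorts. The 36 pairs had a median Pearson r of 0.55, from 0.01 for *Cd300e* with *Eno3* to 0.91 for *Adgre4* with *Spn*. *Ace* with *Treml4* also reached 0.91, 22 pairs were above 0.5, and 0 were below 0. Without mouse 1, in 6 libraries, the median was -0.02, with 18 pairs below 0. *Nr4a1* with *Treml4* kept a correlation of 0.87 and with *Itgal* of 0.74, while *Adgre4* with *Spn* fell to -0.05. Leaving out any other mouse left the median between 0.65 and 0.74.

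**Figure D4:**
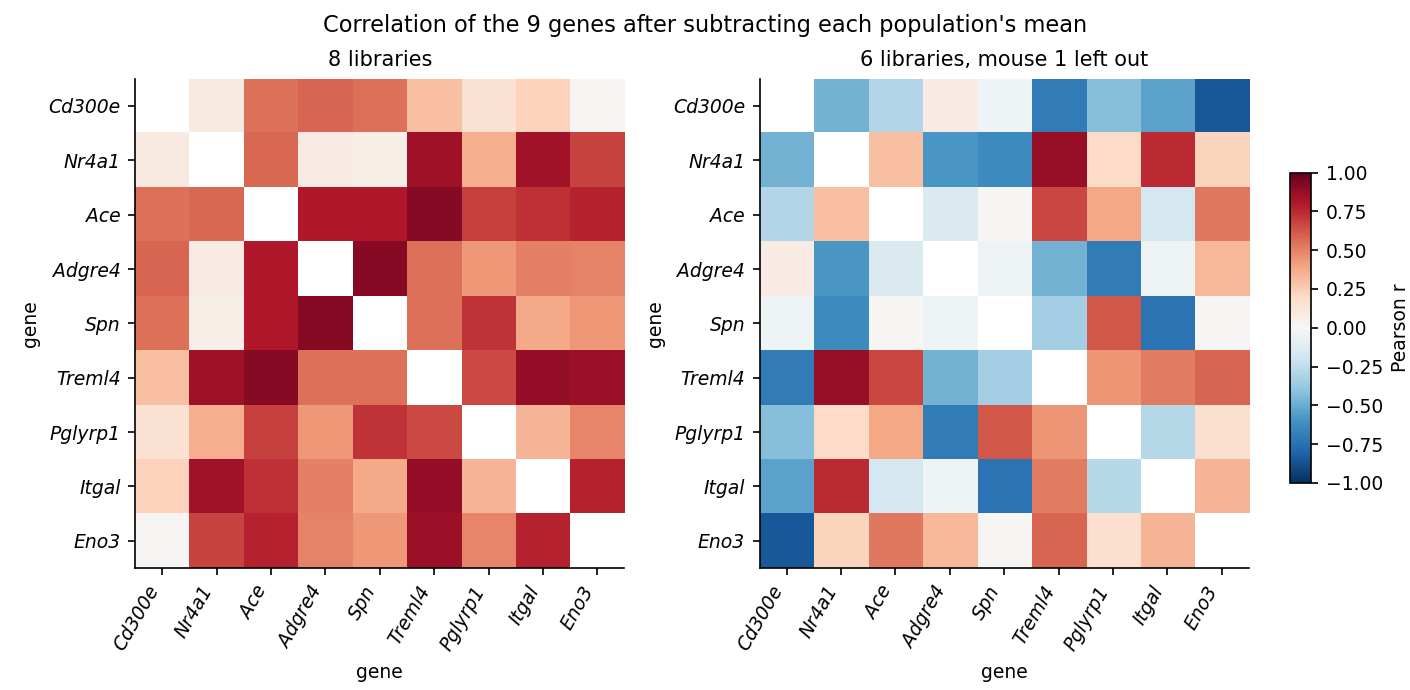
Pearson r of log2 CPM between each pair of the 9 genes (both axes) after subtraction of the population means, over 8 libraries on the left and over 6 libraries without mouse 1 on the right, on a color scale from -1 to 1. The left panel holds no pair below 0 and the right panel holds 18, with *Nr4a1* and *Treml4* strongly positive in both.

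The genes most like each of the 9 were sought by Pearson r of log2 CPM over 8 libraries among 13498 genes with a mean of at least 1 normalized CPM. None of the closest 3 of any gene was another of the 9. *Nup98*, a nuclear pore gene, was first for *Ace* (r = 0.97) and for *Treml4* (r = 0.96). *Adgre4* was closest to the mismatch repair gene *Msh6* (r = 0.99), *Nr4a1* to the transcription factor gene *Stat3* (r = 0.97), and *Cd300e* to *Rars2* (r = 0.95). *Spn* was closest to *Strn3* (r = 0.96), *Itgal* to *Gm9027* (r = 0.99), and *Pglyrp1* to the growth factor receptor gene *Egfr* (r = 0.97). With 8 libraries and so many genes, such values are a description.

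Of 24 other genes of nonclassical monocytes, 23 were tested, 1 was higher and 0 were lower by edgeR (7 and 1 at an unadjusted P under 0.05, and 4 and 1 by DESeq2), and their median log2 fold change was 0.02. Over all tested genes, 3.1% were higher and 6.67% lower at an unadjusted P under 0.05, and 1.12% and 4.87% by DESeq2. The gene that rose was *S1pr5*, a sphingosine 1-phosphate receptor, with a log2 fold change of 4.01 ± 0.610 (SE, n = 4, adjusted P = 0.0527 by edgeR). FCGR4+ cells of mice 1 to 4 held 421, 38, 21, and 7 counts of it, against 24, 3, 1, and 0 in FCGR4- cells. The FCGR4- counts of mice 2 to 4 were thus at or under the floor, and *S1pr5* no longer passed when mouse 1 or mouse 2 was left out. *S1pr5* was like *Ace* and *Treml4* in standing far above in the FCGR4+ library of mouse 1, as *Tcf7l2* also did with 35.3 normalized CPM there against 16.5 to 19.7 in the other mice. The fractalkine receptor gene *Cx3cr1*, with log2 fold change 0.41 ± 0.344 (SE, n = 4), was highest in mouse 2, at 33.3 normalized CPM, and at 19.3 in mouse 1. The transcription factor genes *Klf2*, *Cebpb*, and *Pou2f2* had log2 fold changes of 0.02, -0.26, and 0.46, with edgeR adjusted P = 0.981, 0.711, and 0.547. In all, 10 of the 23 had their highest FCGR4+ level in mouse 1, where all 9 of the genes above and 29.6% of all tested genes did.

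Of 35 relatives and partners of the 9 gene products, 30 were tested, 0 were higher and 1 was lower by edgeR (2 and 4 at an unadjusted P under 0.05, and 1 and 2 by DESeq2), with a median log2 fold change of -0.21. The shares of lower calls over all tested genes were 6.67% and 4.87% by these other criteria. The adaptors *Tyrobp*, through which activating CD300 and TREM receptors signal, and *Fcer1g* had log2 fold changes of 0.14 and 0.26 (adjusted P = 0.744 and 0.544 by edgeR). *Itgb2*, the β chain that pairs with the product of *Itgal*, had -0.41 ± 0.197 (SE, n = 4, adjusted P = 0.550 by edgeR), and was highest in mouse 2 in both populations. *Adgre1*, which encodes F4/80 and is a relative of *Adgre4*, was at 2386 normalized CPM in FCGR4+ cells of mouse 1, again the highest, and at 1143 to 1463 in the others, with a log2 fold change of 0.55 ± 0.153 (SE, n = 4, adjusted P = 0.261 by edgeR). Only 5 of the 30 had their highest FCGR4+ level in mouse 1, beside 29.6% of all tested genes.

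Of 14 genes of classical monocytes, the opposite pole of this axis, 3 were lower and 0 were higher by edgeR (6 and 0 at an unadjusted P under 0.05, and 6 and 0 by DESeq2), with a median log2 fold change of -0.64. Lower calls outnumbered higher ones over all tested genes too, 1.19% against 0.0819% by edgeR and 4.87% against 1.12% by DESeq2. Among those that fell were *Vcan*, a matrix proteoglycan, with -1.44 ± 0.232 (SE, n = 4, adjusted P = 0.0602 by edgeR), and *Cd177*, with -1.36 ± 0.206 (adjusted P = 0.0527 by edgeR). *Vcan* no longer passed without mouse 2, 3, or 4, and *Cd177* without any 1 of the 4. Both were lower in FCGR4+ cells in 4 of 4 mice, and *Cd177* is also expressed by neutrophils, whose genes were lower in the same libraries. For 3 further cell types the summed level was also lower in FCGR4+ cells in 4 of 4 mice. The sum of 8 fibroblast genes, a cell type that also makes *Vcan*, was 140 to 284 against 340 to 1472 normalized CPM, that of 9 mast cell and basophil genes 14.5 to 30.5 against 389 to 2137, and that of 10 dendritic cell genes 10.3 to 22.9 against 53.1 to 123. By edgeR 4 of 8, 8 of 8, and 5 of 10 tested genes of these lists were lower, and their part in the classical monocyte genes was not tested. The sum of 8 B cell genes was instead higher in FCGR4+ cells in 3 of 4 mice, at 139 to 247 against 110 to 228 normalized CPM, although 1 of 7 tested genes was lower by edgeR and 4 by DESeq2, and the endothelial sum was lower in 3 of 4 mice. *Ly6c2*, which encodes the Ly6C that separates the 2 kinds of monocyte, had -0.54 ± 0.359 (SE, n = 4, adjusted P = 0.641 by edgeR). It was at 13.05 and 10.4 normalized CPM in FCGR4+ cells of mice 1 and 2 but at 314 and 458 in mice 3 and 4, and at 25.9, 34.6, 315, and 319 in FCGR4- cells. Mice 3 and 4 were thus high in both populations. None of the 14 had its highest FCGR4+ level in mouse 1, beside 29.6% of all tested genes.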

How the data were processed

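RNA of sorted cells was sequenced, and the authors mapped the read pairs to mm10 with STAR and counted them per gene with featureCounts 1.6.3. The deposited values are these raw counts. Multimapping pairs counted once per place, strand was ignored, and a pair lying on exons of more than 1 gene counted for none. The length of each gene (another column deposited by the authors) served only for RPKM. All columns were used, with 0 left out. Samples were grouped by population and mouse from their labels.

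Genes that reached 10 counts in 4 or more libraries were normalized by TMM (factors 0.937 to 1.11) and tested with edgeR 4.0.16 (R 4.3.3), quasi-likelihood, mouse as a block, with Benjamini-Hochberg adjustment over all tested genes. SEs are the log2 fold change over the square root of F. Ratios of single mice used a prior count of 2. The mouse numbers in the labels mark the animal, so they pair the libraries. Deviations from population means correlated at 0.291 or more (median 0.336) for 1 mouse and at a median of -0.06 for different mice. No libraries were duplicates (chi-square per degree of freedom at least 83.6).

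The 9 genes and all lists were chosen with earlier results of these data known. Genes named beside the 9 are list members past the threshold (up to 10 a list), preset partners, and the 3 genes most correlated with each, of which some are not reported here. *Tcf7l2*, *Adgre1*, *Ly6c2*, and *Napsa* were named after their values were seen. Overlap of exons used the deposited annotation, and 50-base words shared with other genes were sought in GENCODE transcripts of the same build. They made up 3.77% of *Ace* (with *Gm11651*) and 2.67% of *Pglyrp1* (with many genes), and 0% of the other 7. Alternatives were DESeq2 1.42.0, other normalizations, filters, and thresholds, no block, and leaving out mice.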

Additional observations from a re-analysis of the deposited data

Results flagged for a closer look

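In groups of 4 libraries, a level or ratio of the 9 genes was looked at again where the gap of 1 mouse to its nearest neighbor took up more of the whole range than Dixon's 95% critical value for 4 samples. Of 27 groups, 5 met this. Chance gives about 1 in 20, here 1.35, for genes not chosen from the values screened. The 9 genes were chosen from these same counts, their groups share libraries, and each ratio is built from levels that were also screened. No excess over chance is therefore read from the 5. All 5 were mouse 1 on the high side. The fraction was 0.890 for *Ace*, 0.939 for *Adgre4*, 0.841 for *Spn*, and 0.884 for *Treml4* in FCGR4+ cells, and 0.902 for *Spn* in FCGR4- cells. The levels behind them were 24.1 normalized CPM for *Ace* with the next mouse at 7.15, 180.0 and 45.5 for *Adgre4*, 10.9 and 3.53 for *Spn*, and 27.97 and 6.99 for *Treml4*. For *Spn* in FCGR4- cells they were 7.85 and 4.06.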

How the results depend on the processing

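The 2 calls among the 9 genes, *Cd300e* and *Pglyrp1*, were the same 2 with DESeq2, edgeR's newer quasi-likelihood method, RLE factors, library size alone, no filter, and 10 counts required in every library. There were 0 with no replicate block, at a threshold of 0.05, and in mice 1 and 2 or 3 and 4 alone, and 0 to 1 with a mouse left out. The log2 fold changes of the 9 genes moved by at most 0.39 in the 6 alternatives that kept all 4 mice, where *Ace* and *Spn* changed sign with no replicate block, and by at most 1.21 in the 6 with fewer mice, with *Cd300e* staying between 1.94 and 2.72 and *Pglyrp1* between -1.93 and -1.29. The other 7 changed sign in 1 to 3 of 12 alternatives each. The 36 levels and 9 mean ratios recomputed with another scaling or prior count moved by less than the SD between mice. Scaling by library size alone shifted the median of all genes to -0.09 and no filter to -0.16. Over all genes, 217 calls became 48 with no replicate block, 1024 with DESeq2, 629 with the newer method, 1054 with no filter, 76 at a threshold of 0.05, 113 in mice 1 and 2 and 113 in mice 3 and 4, and 84 to 163 with a mouse left out. The 1 other nonclassical gene, *S1pr5*, became 0 with no replicate block and at 0.05. It was also 0 with 10 counts required in every library, a filter that removed *S1pr5* before the test. There were 5 with DESeq2, 3 with no filter, and 0 to 1 with a mouse left out. Without mouse 1, and in mice 3 and 4 alone, the 1 call was not *S1pr5* but *Napsa*, lower in FCGR4+ cells. The 1 relative or partner became 0 with no replicate block, at 0.05, and in mice 1 and 2, 3 with DESeq2, 5 with no filter, 2 with the newer method, library size alone, 10 counts in every library, and mice 3 and 4, and 0 to 1 with a mouse left out. The 3 classical genes became 0 with no replicate block, at 0.05, and in mice 1 and 2, 6 with DESeq2, 8 with no filter, and 0 to 3 with a mouse left out. The median correlation among the 9 genes, 0.55, was between -0.016 without mouse 1 and 0.74 without mouse 3, leaving-out here and for levels per length having been added after the data were seen. The cause of these changes was not tested.

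With 4 mice, the differences of 7 of the 9 genes lie within 2 standard errors of 0, which does not show that the populations were alike. Counting error is small beside the spread between mice. The lowest counts of the 9 genes were 26 for *Cd300e* in FCGR4- and 54 for *Pglyrp1* in FCGR4+ cells. P values measure the spread between the 4 mice of 1 sort each.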
